A study of Mus musculus with 15 samples.

Results

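The 5 genes described here are *Mc4r* and 4 genes of its hypothalamic surroundings, the second neural melanocortin receptor *Mc3r*, the ligand precursor *Pomc*, and the transcription factors *Sim1* and *Otp*. They were taken by name from the 19475 genes of the RNA-Seq table, and all 5 were found by their Ensembl identifiers. *Mc4r* was selected because its transcript was low in homozygous mutants in these same data, so its levels in those comparisons are a description and carry no test. The other 4 genes were listed for their place in the hypothalamus, to set the *Mc4r* level beside the hypothalamic content of each sample.

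The samples were single brains from C57BL/6J mouse embryos at E16.5, late in gestation, with 5 WT, 5 heterozygous (*Tbr1*+/K228E), and 5 homozygous (*Tbr1*K228E/K228E) embryos. Each genotype comprised 3 females and 2 males. The knock-in allele replaces a lysine with a glutamate in the T-box of TBR1, the domain that contacts DNA, in every cell of the animal, and its selection cassette was removed with a protamine-driven Cre recombinase. The tissue is called brain in the study's methods, forebrain elsewhere in its text, and whole brain in the series description, and all are given here because the difference bears on hypothalamic and hindbrain content. Whether embryos of a genotype came from separate litters is not given in the sources used here, so p-values measure the spread between these embryos.

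Melanocortin signaling controls food intake and energy use. Neurons of the arcuate nucleus cut the POMC protein into melanocyte-stimulating hormones, which activate MC3R and MC4R, and agouti-related peptide (AgRP) blocks these receptors. MC4R is a receptor coupled to stimulatory G protein, and its best-known site is the paraventricular nucleus of the hypothalamus, whose neurons need SIM1 and OTP to form. *Mc4r* is also transcribed in other parts of the brain, cortex and brainstem included.

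The sums of normalized read counts were 30.5 to 31.8 M per embryo (M, mega), and the most common low value gave an estimated 26.2 to 37.9 M reads. That value, taken as a single read, was 0.817 to 1.19 normalized read counts. It is approximate, since some genes had nonzero values below it. *Tbr1* itself had 3537 ± 1049 normalized read counts (SD, n = 5) in WT, 6269 ± 1532 (SD, n = 5) in heterozygous, and 11366 ± 3160 (SD, n = 5) in homozygous mice, and because the mutation changes a codon, this level does not check the genotype. Of 16507 genes tested with limma at a Benjamini–Hochberg adjusted p under 0.05, 0% (0 genes) differed between heterozygous and WT mice, 0.127% (21 genes) between homozygous and WT mice, and 0.0788% (13 genes) between homozygous and heterozygous mice. In the first of these comparisons 295 genes had an unadjusted p under 0.05 (limma), a smaller share than the 0.05 that chance gives on average. In the same comparison 1 gene passed the threshold when a cortical score was a covariate. The dissections differed in caudal content within every genotype: the summed normalized read count of 15 hindbrain and spinal Hox genes was 4.80 to 3274 in WT, 0 to 3952 in heterozygous, and 4.08 to 575 in homozygous mice. Its part in the results was not tested.

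In GRCm38 coordinates, *Mc3r* (ENSMUSG00000038537) lies on the plus strand of chromosome 2 from 172248492 to 172251114 and has 1 exon. *Pomc* (ENSMUSG00000020660) lies on the plus strand of chromosome 12 from 3954951 to 3960642, *Sim1* (ENSMUSG00000019913) on the plus strand of chromosome 10 from 50894754 to 50989152, and *Otp* (ENSMUSG00000021685) on the plus strand of chromosome 13 from 94875602 to 94885130. No other annotated gene overlapped any of these or *Mc4r*, so their reads are not shared with a neighbor or an antisense gene.

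Promoter sequences in the RefSeq table for GRCm38.p6 were matched for 4 of the 5 genes, all but *Mc4r*. They are given for the ligand precursor and the second receptor because the mutated residue touches DNA and because these are the genes whose products act on or beside MC4R. Each run ends at the base before the RefSeq transcript start, reads 5′ to 3′ on the plus strand, and has in capitals any GGTGTG, the core of the element that T-box proteins bind, and any TATAAA.
*Pomc*, chr12:3954695-3954944: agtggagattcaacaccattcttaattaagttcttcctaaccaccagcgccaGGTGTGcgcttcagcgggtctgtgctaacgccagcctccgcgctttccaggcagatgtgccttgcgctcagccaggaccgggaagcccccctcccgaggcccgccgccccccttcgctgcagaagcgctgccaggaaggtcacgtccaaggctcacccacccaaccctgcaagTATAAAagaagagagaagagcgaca
*Mc3r*, chr2:172248242-172248491: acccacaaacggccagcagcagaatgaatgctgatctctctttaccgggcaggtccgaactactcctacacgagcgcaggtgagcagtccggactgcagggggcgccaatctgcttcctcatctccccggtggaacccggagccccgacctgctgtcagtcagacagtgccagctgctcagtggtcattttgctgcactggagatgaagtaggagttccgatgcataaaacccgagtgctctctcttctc

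Both strands were searched in the whole window, 250 bases before to 50 after the start. GGTGTG occurred once in the *Pomc* window and not in those of *Mc3r*, *Sim1*, and *Otp*, and 19% of 32851 promoters of the same length hold it. The longer GGTGTGA, which contains GGTGTG, was found in none of the 4 windows and in 3.98% of all promoters. TATAAA had 1 match in *Pomc* and 2 in *Sim1*, against 13.6% of all promoters with at least 1. These matches describe letters and are no evidence of a bound site.

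*Mc4r* was the melanocortin receptor gene with the highest level in these brains, and it was low in every homozygous embryo. It has the identifier ENSMUSG00000047259 and 1 exon, and its GRCm38 position is chromosome 18, 66857704 to 66860506, minus strand. The 5 WT embryos had 284, 231, 310, 146, and 137 normalized read counts. The 5 heterozygous embryos had 195, 215, 159, 175, and 158, inside the WT range. The 5 homozygous embryos had 59.6, 74.6, 33.0, 53.7, and 46.1, so that the highest of them lay below the lowest WT and the lowest heterozygous embryo. The means were 221 ± 78.7 (SD, n = 5) in WT, 180 ± 24.3 (SD, n = 5) in heterozygous, and 53.4 ± 15.5 (SD, n = 5) in homozygous mice. The log2 difference that served to select the gene was −2.00 between homozygous and WT mice, 0.25 of the WT level, and −1.78 between homozygous and heterozygous mice. Complete separation of this kind, with each homozygous embryo below each WT embryo, was seen for 0.273% of the tested genes, and for 0.388% against heterozygous embryos. These shares are given for scale, since *Mc4r* was chosen for this pattern. In these bulk samples, fewer cells that express a gene and less RNA per cell cannot be told apart.

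**Figure D1:**
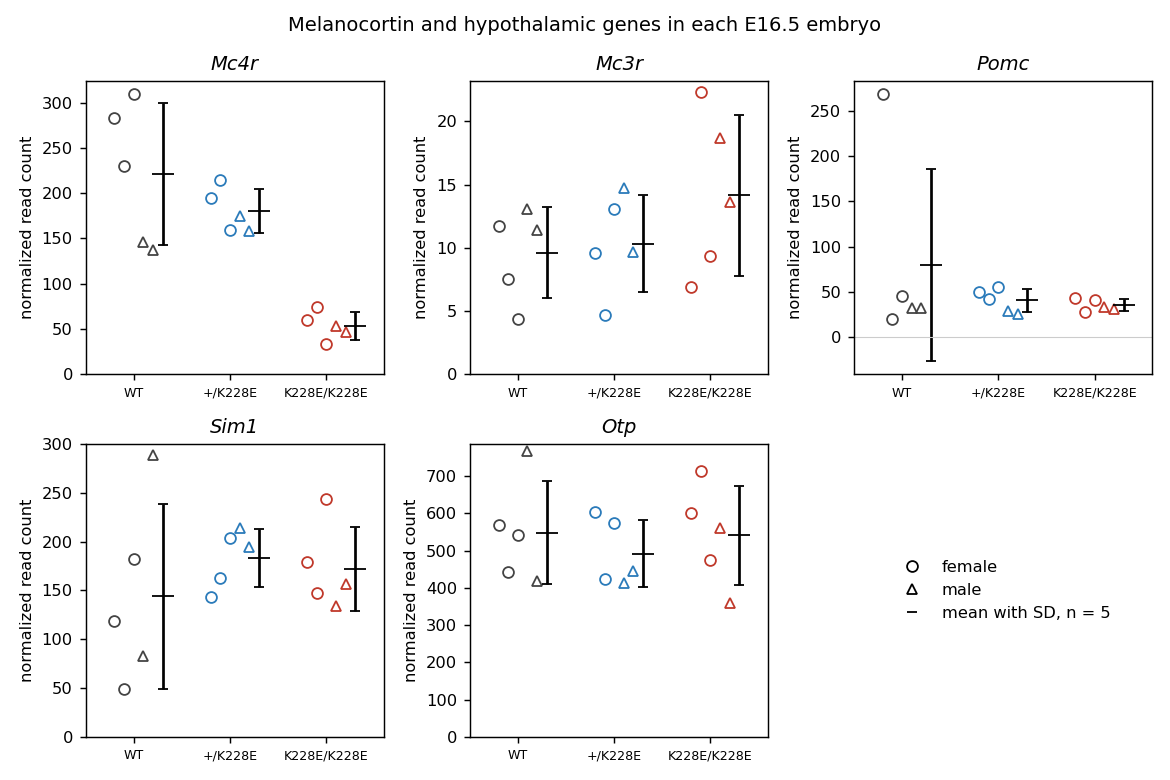
Normalized read counts (vertical axes, linear) of *Mc4r*, *Mc3r*, *Pomc*, *Sim1*, and *Otp* in each embryo by genotype (horizontal axes); circles are females, triangles are males, and the bar beside each group is the mean with SD (n = 5). The homozygous embryos have *Mc4r* values of 33.0 to 74.6, below the 137 of the lowest WT embryo, while the genotypes overlap for the other 4 genes and 1 WT embryo stands out for *Pomc* at 268.

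The comparison of heterozygous with WT mice did not serve to select *Mc4r*, although it uses the same WT embryos. The log2 difference was −0.23, with a 95% interval from −0.74 to 0.29 (limma, adjusted p = 0.999, and exact permutation p = 0.397). A single mutant allele thus came with no detectable change in the *Mc4r* transcript, and the interval leaves room for losses of up to 0.74 on the log2 scale.

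The WT values of *Mc4r* did not overlap between the sexes, which is given as a description. The 3 WT females had 231 to 310 normalized read counts and the 2 WT males 137 and 146. In heterozygous mice the females had 159 to 215 and the males 158 and 175, and in homozygous mice the females had 33.0 to 74.6 and the males 46.1 and 53.7, so the sexes overlapped in both mutant genotypes. As a description, the log2 difference between homozygous and WT embryos was −2.35 in females and −1.49 in males. For the heterozygous-to-WT difference of *Mc4r*, −0.53 in females and 0.24 in males, the interaction of sex and genotype did not pass the threshold (limma, adjusted p = 0.747).

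*Mc3r*, the other melanocortin receptor of the brain, was scarce. The WT embryos had 11.7, 7.49, 4.40, 13.1, and 11.4 normalized read counts, the heterozygous embryos 9.58, 4.67, 13.0, 14.7, and 9.63, and the homozygous embryos 6.89, 22.3, 9.35, 18.7, and 13.6. The groups overlapped throughout. Its means were 9.61 ± 3.58 (SD, n = 5), 10.3 ± 3.87 (SD, n = 5), and 14.2 ± 6.38 (SD, n = 5) in the same order. The log2 difference between homozygous and WT mice was 0.49 with an interval from −0.31 to 1.28 (limma, adjusted p = 1.00, exact permutation p = 0.238). It was 0.09 between heterozygous and WT mice, from −0.70 to 0.89 (limma, adjusted p = 0.999), and 0.39 between homozygous and heterozygous mice, from −0.40 to 1.18 (limma, adjusted p = 0.996). Few reads lie behind these values, and a loss of the size seen for *Mc4r* lies outside the interval. *Mc1r*, the receptor of pigment cells, and *Mc5r*, that of exocrine glands, had log2 differences of −0.24 and −0.27 between homozygous and WT mice and did not pass the test.

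Per kilobase of exon, *Mc4r* averaged 79.0 normalized read counts in WT and 19.0 in homozygous mice, and *Mc3r* 3.66 and 5.40. On this scale *Otp* had the highest mean of the 5 genes in WT mice at 190, followed by *Mc4r*, *Pomc* at 60.5, *Sim1* at 16.7, and *Mc3r*. The WT ranges per kilobase were 48.8 to 111 for *Mc4r* and 5.62 to 33.4 for *Sim1*, which did not overlap, while *Pomc*, at 15.1 to 203, overlapped with *Otp*, *Mc4r*, and *Sim1*. In homozygous mice the order of the means was *Otp* at 188, *Pomc* at 26.9, *Sim1* at 20.0, *Mc4r*, and *Mc3r*. There the range of *Mc4r*, 11.8 to 26.6, overlapped with that of *Sim1*, 15.6 to 28.2, and with that of *Pomc*, 20.9 to 33.2.

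*Pomc*, which encodes the precursor of the melanocortin peptides, varied between embryos mainly through 1 WT female. WT embryo 1 had 268 normalized read counts, and the other WT embryos had 20.0, 46.0, 32.6, and 32.6. The heterozygous embryos had 50.5, 42.5, 55.8, 29.2, and 25.7, and the homozygous embryos 43.8, 27.5, 40.7, 33.8, and 31.5. All genotypes overlapped, and the log2 difference between homozygous and WT mice was −0.46, with an interval from −1.54 to 0.62 (limma, adjusted p = 1.00, exact permutation p = 0.690). Between homozygous and heterozygous mice it was −0.15, from −1.23 to 0.92 (limma, adjusted p = 0.996). Without WT embryo 1 the first of these was 0.15, and the difference between heterozygous and WT mice turned from −0.31 (interval from −1.39 to 0.77, limma, adjusted p = 0.999) to 0.30, so the direction of both rests on that embryo.

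The same embryo held transcripts of the anterior pituitary, a gland that hangs from the hypothalamus and makes POMC itself. The growth hormone gene *Gh* had 57.3 normalized read counts in WT embryo 1, 0.860 in homozygous embryo 5, and was listed at 0 in the other 13 embryos. *Cga*, the shared subunit of the pituitary glycoprotein hormones, had 51.3 in WT embryo 1 and at most 1.11 elsewhere. *Tshb*, the thyrotropin subunit, had 59.7 against at most 4.85 elsewhere. *Pou1f1*, the factor of the hormone cells that make growth hormone, prolactin, and thyrotropin, had 36.9 against at most 5.40. *Tbx19*, the factor that drives *Pomc* in pituitary corticotropes, had 21.7 against at most 5.06, and *Pitx1* had 66.9 against at most 32.9. The other list members did not single out this embryo: *Lhx3* had 53.3 in it, 53.9 in WT embryo 4, and 41.3 in homozygous embryo 1, and *Lhb*, the luteinizing hormone subunit, had 5.18 in it and up to 13.2 elsewhere. The sum over the 8 pituitary markers in the table was 22.1 to 352 in WT, 22.4 to 60.6 in heterozygous, and 21.6 to 84.2 in homozygous mice, the 352 being WT embryo 1. The part of pituitary tissue in the *Pomc* level of this embryo was not tested. Its *Mc4r* level, 284, was within the range of the other WT females.

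**Figure D2:**
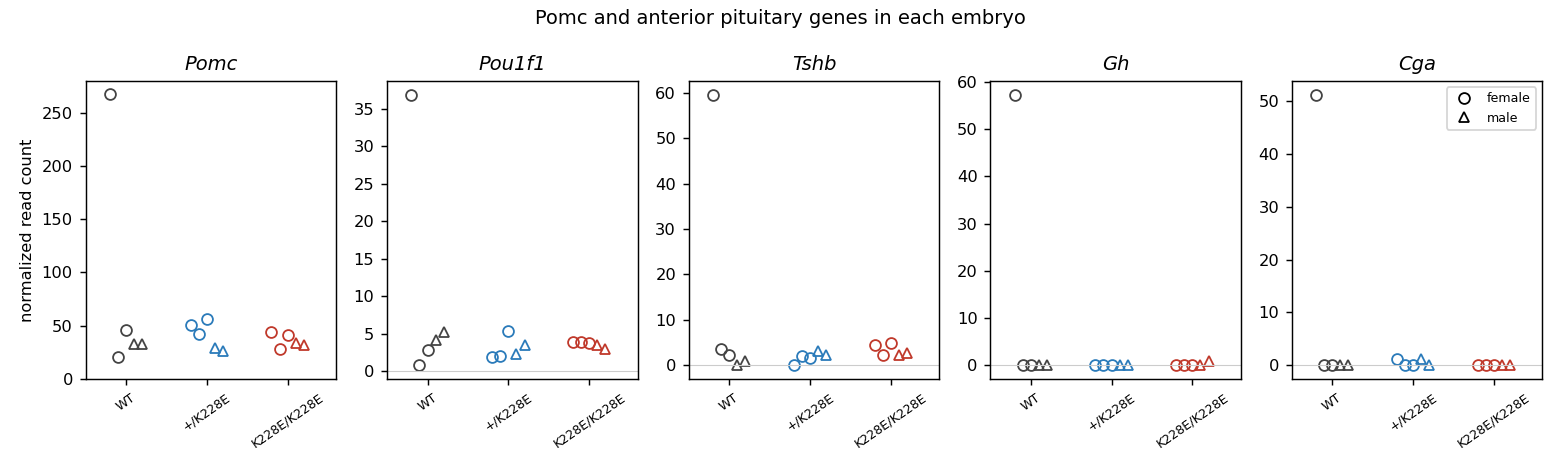
Normalized read counts (vertical axes, linear) of *Pomc* and the pituitary genes *Pou1f1*, *Tshb*, *Gh*, and *Cga* in each embryo by genotype; circles are females and triangles are males. WT embryo 1 is the highest in all 5 panels, at 268 for *Pomc* and 57.3 for *Gh*.

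*Sim1*, the transcription factor needed for paraventricular neurons, had both its lowest and its highest level among the WT embryos. They had 119, 48.5, 182, 82.7, and 288 normalized read counts. The heterozygous embryos had 143, 163, 204, 214, and 194, and the homozygous embryos 179, 147, 243, 134, and 157. The mutant embryos of both genotypes lay within the WT range. The means were 144 ± 94.6 (SD, n = 5) in WT, 183 ± 29.8 (SD, n = 5) in heterozygous, and 172 ± 43.1 (SD, n = 5) in homozygous mice. *Sim1* differed by 0.48 on the log2 scale between homozygous and WT mice, with an interval from −0.27 to 1.23 (limma, adjusted p = 1.00, exact permutation p = 0.349), and by −0.11 between homozygous and heterozygous mice, from −0.86 to 0.64 (limma, adjusted p = 0.996). Between heterozygous and WT mice it differed by 0.59, from −0.16 to 1.34 (limma, adjusted p = 0.999, exact permutation p = 0.246).

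*Otp*, the homeodomain factor of the same neurons, was at similar levels in the 3 genotypes. The WT embryos had 570, 442, 543, 767, and 419 normalized read counts, the heterozygous embryos 603, 423, 575, 413, and 446, and the homozygous embryos 601, 713, 474, 560, and 360. The means were 548 ± 138 (SD, n = 5), 492 ± 89.8 (SD, n = 5), and 542 ± 133 (SD, n = 5), and the groups overlapped. The log2 difference between homozygous and WT mice was −0.02, with an interval from −0.42 to 0.38 (limma, adjusted p = 1.00, exact permutation p = 0.944). Its sign was not stable, since it was positive without WT embryo 1 or 4, without homozygous embryo 3 or 5, and with quantile scaling. Between heterozygous and WT mice the difference was −0.14, from −0.54 to 0.26 (limma, adjusted p = 0.999), and between homozygous and heterozygous mice 0.12, from −0.28 to 0.52 (limma, adjusted p = 0.996).

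No relation of the *Mc4r* level to *Sim1* or *Otp* from embryo to embryo passed a test. WT embryo 2, a female with the lowest *Sim1* (48.5), had 231 normalized read counts of *Mc4r*. WT embryo 5, a male with the highest *Sim1* (288), had 137. Because the WT sexes did not overlap in *Mc4r*, these embryos cannot separate *Sim1* from sex. Among homozygous embryos, embryo 3 had the highest *Sim1* (243) and the lowest *Mc4r* (33.0). Divided by *Sim1*, *Mc4r* was 0.474 to 4.76 in WT, 0.782 to 1.37 in heterozygous, and 0.136 to 0.507 in homozygous mice, so WT embryo 5 overlapped with the homozygous embryos on this ratio. Divided by *Otp*, it was 0.190 to 0.571 in WT, 0.277 to 0.507 in heterozygous, and 0.0696 to 0.128 in homozygous mice. The homozygous values did not overlap with the others on this ratio. Both ratios are a description, as *Mc4r* was selected on its low homozygous level. Over the 15 embryos, *Otp* and the hypothalamic score described below gave r = −0.14 (permutation p = 0.617) and rho = 0.07 (permutation p = 0.811). The highest *Otp* (767) was in WT embryo 4, which had the lowest score (5.92), so the *Otp* ratio is not a ratio to that score. Over the 10 WT and heterozygous embryos, *Mc4r* and *Sim1* gave Pearson's r = −0.30 (permutation p = 0.405) and Spearman's rho = −0.44 (permutation p = 0.206), and r = −0.71 without WT embryos 2 and 4, the farthest in *Sim1*. *Mc4r* and *Otp* gave r = 0.01 (permutation p = 0.973) and rho = 0.02 (permutation p = 0.974), and r = 0.48 without WT embryo 4 and heterozygous embryo 1. The homozygous embryos were kept out of these correlations because they form a separate cluster in *Mc4r*, and sex was not taken into account. Of 15 such relations among the 5 genes and a hypothalamic score, 0 passed after Benjamini–Hochberg adjustment, with a smallest adjusted p of 0.273 for Pearson and 0.104 for Spearman permutation tests.

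The hypothalamic score was the mean log2 level of 18 regional transcription factors, such as *Nkx2-1* and *Rax*. It was 5.92 to 6.79 in WT, 6.02 to 7.04 in heterozygous, and 5.98 to 6.93 in homozygous mice. Scores under 6.1 were found in 4 embryos, WT embryos 2 and 4, heterozygous embryo 2, and homozygous embryo 2, so low values occurred in every genotype. They came from different genes: heterozygous embryo 2 had the lowest *Barhl1* (15.3) and *Foxb1* (28.0) of all embryos but 862 of *Nkx2-1*, whereas homozygous embryo 2 had the highest *Barhl1* (1740) and *Foxb1* (406) and the lowest *Six6* (1.11). The score is thus a mean over genes that varied separately, and not a single amount of tissue. The mean log2 level of the thalamic markers described below also differed, at 9.39 in heterozygous embryo 2 and 10.5 in homozygous embryo 2. Whether the score varied within the hypothalamus or with other parts of the dissection was not tested. With the hypothalamic score as a covariate, the log2 difference in *Mc4r* was −1.99 between homozygous and WT mice and −1.78 between homozygous and heterozygous mice. With the mean of *Sim1* and *Otp* as the covariate it was −1.95 and −1.78, and with a score of 10 cortical glutamatergic markers −2.01 and −1.77. These values are a description, as *Mc4r* was selected on the difference itself. *Sim1* and *Otp* gave, over the 15 embryos, r = −0.27 (permutation p = 0.329) and rho = −0.41 (permutation p = 0.126). No positive relation between these genes was thus seen, and what their mean measures was not tested. Over the 10 WT and heterozygous embryos, the score and *Mc4r* gave r = 0.07 (permutation p = 0.840) and rho = 0.25 (permutation p = 0.491), and r = −0.02 without WT embryos 2 and 4.

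**Figure D3:**
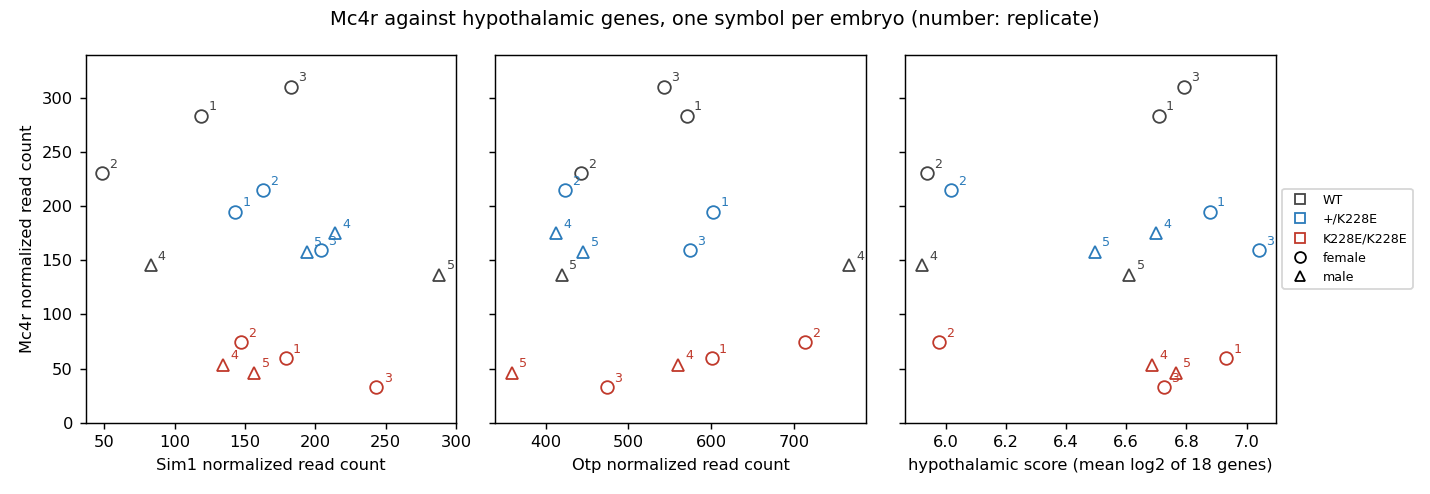
*Mc4r* normalized read count (vertical axis) against the normalized read counts of *Sim1* and *Otp* and against the hypothalamic score, the mean log2 level of 18 regional genes; each symbol is an embryo, colored by genotype and numbered by replicate, with circles for females and triangles for males. The homozygous embryos lie at or below 74.6, at *Sim1* values of 134 to 243 where all embryos span 48.5 to 288, and WT and heterozygous embryos with low scores have *Mc4r* values of 146 to 231.

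*Sim1* and the score gave, over the 15 embryos, r = 0.59 (permutation p = 0.0182, adjusted p = 0.273) and rho = 0.38 (permutation p = 0.163), which dropped to r = 0.15 without WT embryos 2 and 4. This relation therefore rests on those embryos. *Pomc* had r = 0.38 (permutation p = 0.165) and rho = 0.68 with it (permutation p = 0.00691, adjusted p = 0.104), and r = 0.26 without the same 2 embryos.

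Markers of the wider hypothalamus were followed as 18 regional factors of the score, 5 paraventricular factors, and the neuropeptide genes. None passed the limma test in any comparison, which is no different from most genes, since 0%, 0.127%, and 0.0788% of all tested genes passed, and the sizes of the differences are given instead. Between homozygous and WT mice, 11 had positive and 7 negative log2 differences, with a median of 0.21 against −0.0023 over all tested genes, and a range from −0.40 to 1.14. *Six3*, an anterior regional factor with the highest mean of the list, had 0.19, and *Barhl1*, a factor of the caudal hypothalamus, −0.12. The 5 paraventricular factors, *Sim1* and *Otp* among them, had a median of 0.13, the value of *Pou3f2*, a further factor of these neurons. *Arnt2*, the dimerization partner of SIM1, had 0.05. In WT mice *Arnt2* and *Pou3f2* averaged 12991 and 3879 normalized read counts, against 144 for *Sim1* and 548 for *Otp*. How much of the *Arnt2* and *Pou3f2* signal came from paraventricular neurons was not tested. Of 12 hypothalamic neuropeptide genes, 11 were in the table and tested, 0 passed, and their median was 0.02. *Sst*, which is transcribed far beyond the hypothalamus, had 0.11, and *Avp*, the vasopressin gene of paraventricular and supraoptic neurons, 0.94. *Avp* had 2.72 and *Oxt*, the oxytocin gene, 0 normalized read counts in WT embryo 2, where *Avp* ranged from 39.0 to 145 in the other 14 embryos. *Pmch*, the gene of melanin-concentrating hormone, had 6.49 and 2.37 in WT embryos 2 and 4 and at least 45.2 elsewhere. Low peptide levels did not mark all embryos with a low score, since heterozygous embryo 2 had the highest *Avp* (145) and 67.8 of *Pmch*, and homozygous embryo 2 had 70.5 of *Pmch*.

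**Figure D4:**
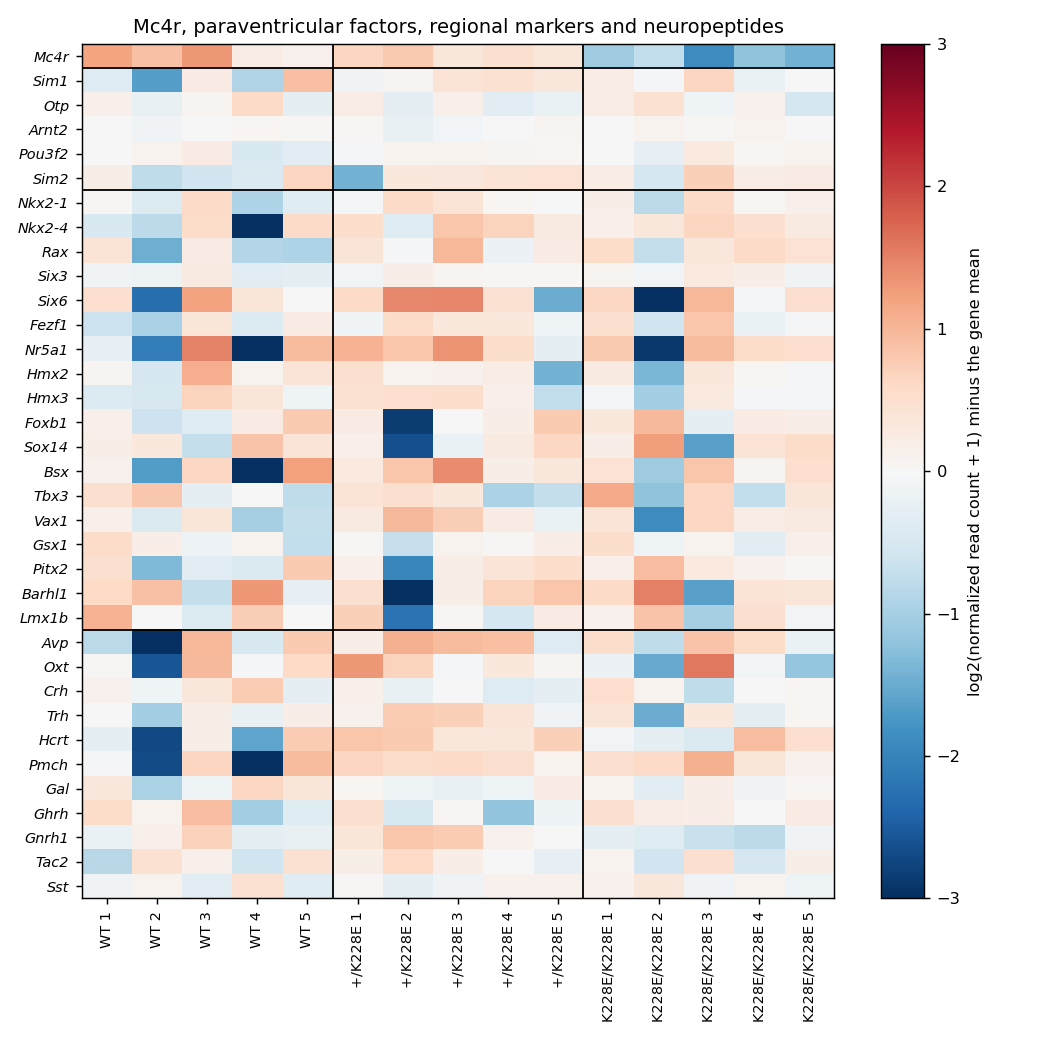
Log2(normalized read count + 1) of each gene minus its mean over the 15 embryos (color, from −3 to 3), for *Mc4r* (top row), 5 paraventricular factors, 18 hypothalamic regional factors, and 11 neuropeptide genes, with embryos as columns by genotype and replicate. *Mc4r* is low in the 5 homozygous columns, whereas many of the lowest values of the other genes fall in WT embryos 2 and 4, heterozygous embryo 2, and homozygous embryo 2.

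The melanocortin pathway was listed more widely. Of 29 genes listed as receptors, ligands and antagonists, POMC-processing enzymes, receptor partners, and energy-balance inputs, 28 were in the table and 26 had a mean of at least 5, the level required for testing. Apart from *Mc4r*, 0 of 25 passed in any of the 3 comparisons, where 0%, 0.127%, and 0.0788% of all tested genes passed, so the count does not set the list apart. The log2 differences between homozygous and WT mice ran from −0.46 to 0.49. *Agrp*, the antagonist of MC3R and MC4R, had −0.09. Among the enzymes that make melanocortins, *Pcsk1* and *Pcsk2*, the prohormone convertases, had −0.03 and 0.09, *Cpe*, which trims the cut peptides, 0.04, and *Pam*, which amidates them, −0.08. *Mrap2*, the accessory protein of MC4R, had −0.01, *Gnas*, the G protein subunit through which it signals, −0.06, and *Sdc3*, a syndecan of the AgRP system, 0.04. *Npy*, the orexigenic peptide made with AgRP, had 0.26 with an unadjusted p of 0.0487 and an adjusted p of 1.00 (limma). *Insr*, the insulin receptor, had 0.06, and *Ntrk2*, the receptor for BDNF, which acts downstream of MC4R, −0.03.

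**Figure D5:**
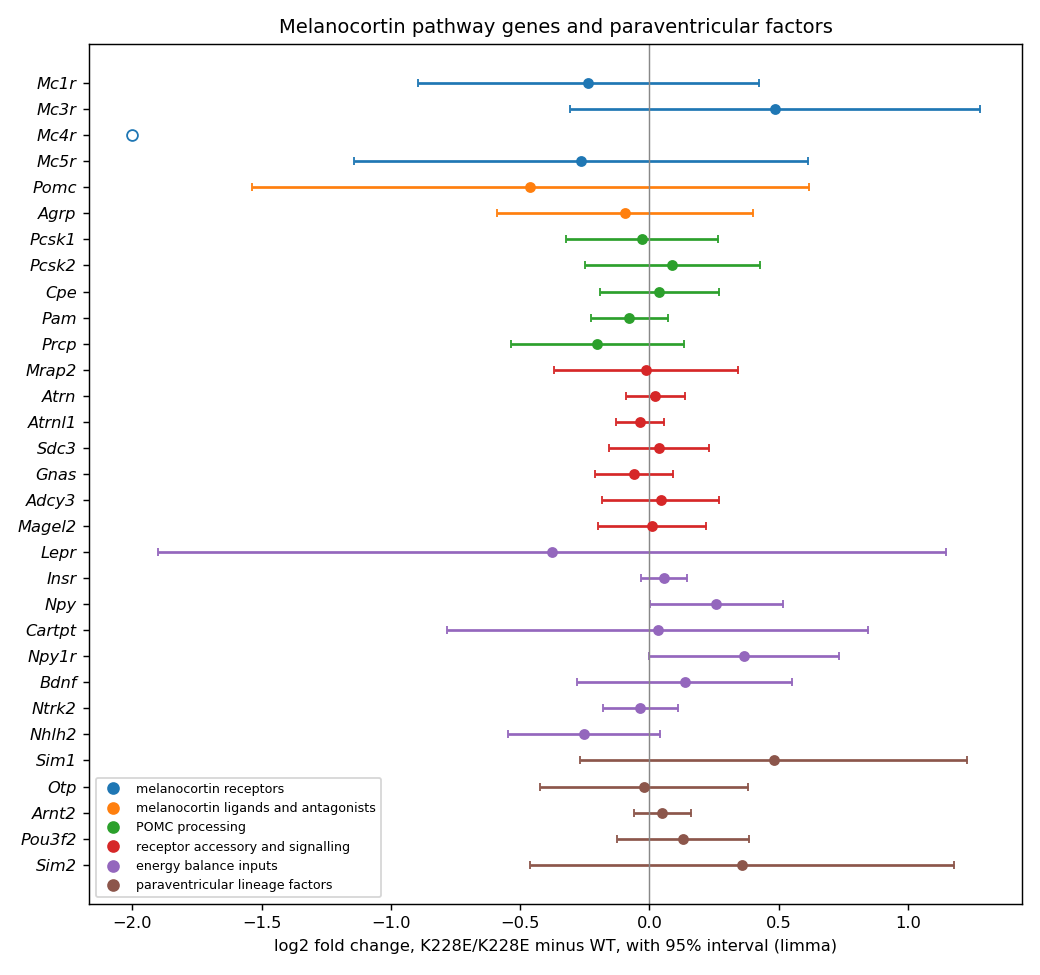
Log2 differences between homozygous and WT mice (horizontal axis, limma) for the tested genes of the melanocortin pathway and 5 paraventricular factors, with 95% intervals; colors mark the gene lists. *Mc4r*, drawn as an open circle with no interval because it was selected on this value, lies at −2.00, and the other pathway genes lie between −0.46 and 0.49.

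Regions outside the hypothalamus were followed in the same way. None of the 10 cortical glutamatergic markers passed in any comparison with limma, and 2 of them had an unadjusted p under 0.05 between homozygous and WT mice, as did 534 of all 16507 tested genes. These were *Fezf2*, a factor of subcerebral projection neurons, at 0.66 and *Bhlhe22* at 0.45, both with an adjusted p of 1.00. The median log2 difference of the list was 0.03, with *Bcl11b* and *Neurod6*, factors of deep-layer and of cortical projection neurons, at 0.10 and −0.14. The 10 striatal markers had a median of 0.02, with *Foxp1* at 0.19 and *Ebf1* at 0.00, and the 6 thalamic markers one of 0.004, with *Tcf7l2* at 0.19 and *Lhx9* at 0.03. Of the 14 Hox genes tested 0 passed. Their median was −1.52 between homozygous and WT mice and −1.79 between heterozygous and WT mice, while the summed Hox levels ranged widely within each genotype. *Hoxb3* and *Hoxd3*, the most abundant of them, had −1.29 and −1.43 in the first of these comparisons. The 5 pituitary markers tested had a median of −0.41, with *Pitx1* at −0.53 and *Lhx3* at −1.47, and 0 passed. Of all 16507 tested genes, 0% passed between heterozygous and WT mice, 0.127% between homozygous and WT mice, and 0.0788% between homozygous and heterozygous mice. The counts of 0 therefore do not set the cortical, Hox, and pituitary lists apart from other genes.

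Genes whose levels ran most like that of *Mc4r* over the 15 embryos were *Prex1* (Pearson's r = 0.89), *Reln* (0.89), *Wnt7b* (0.88), *Bcl6* (0.87), and *P2rx5* (0.86). *Prex1* encodes a Rac exchange factor, *Reln* the secreted protein reelin, *Wnt7b* a Wnt ligand, *Bcl6* a transcriptional repressor, and *P2rx5* an ATP-gated channel. Between homozygous and WT mice they had log2 differences of −0.47, −0.56, −0.79, −1.04, and −1.10, so the likeness includes the difference between genotypes. With the genotype means removed, the 3 most similar genes were *Cep72* (0.90), 5930430L01Rik (0.88), and *Zswim9* (0.88), whose log2 differences were 0.06, −0.18, and 0.02. *Sim1* ran most closely with *Prox1* (0.96), *Kitl* (0.86), and *Agbl1* (0.86) on the same measure. *Prox1* encodes a homeodomain factor and is itself a member of the thalamic marker list used here. *Pomc* ran with *Slc6a19* (0.89), *Pou1f1* (0.86), and *Dlk1* (0.85), each of which was highest in WT embryo 1. *Otp* ran with *Tpbgl* (0.89), *Dkkl1* (0.85), and *Tuba8* (0.85), and *Mc3r* with *Gpr139* (0.91), *Kcnh4* (0.90), and Gm10471 (0.89). These genes were picked as the highest of 16507 correlations, all points share the same 15 libraries, and the r values are given without a test.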

How the data were processed

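RNA-Seq was performed on 15 E16.5 embryo brains, 5 per genotype, with 101-bp paired reads. Per the labels and methods, the authors estimated transcripts with Salmon 0.11.2 on GRCm38 with GC bias correction, imported them with tximport in R 3.5.3, and divided by DESeq2 1.22.2 size factors. The deposited values are thus a normalized signal per gene (normalized read counts), from which whole reads could not be recovered, so no count model was fitted. Identifiers were matched to GENCODE symbols for 19452 of 19475 genes. For the comparisons, log2(value + 1), a scale that understates changes of low genes, was fitted with limma 3.58.1 under R 4.3.3, using a mean-variance trend. All 15 embryos entered one fit of 16507 genes with a mean of at least 5, with Benjamini–Hochberg adjustment and a threshold of 0.05. Single genes were also compared by two-sided exact permutation tests of 5 against 5, whose smallest p is 0.00794, and correlations by two-sided permutation tests with 100000 resamples. The fit was tested on simulated data. The 5 genes and all lists were chosen with earlier results of these data known. Named genes were the 5 genes, list genes past the threshold, the 2 genes with the highest mean of each list, and the most similar genes. The genes *Mc1r*, *Pcsk1*, *Pcsk2*, *Mrap2*, *Npy*, *Oxt*, *Pmch*, *Nkx2-1*, *Foxb1*, *Six6*, *Fezf2*, *Bhlhe22*, *Lhb*, *Gh*, *Cga*, *Tshb*, *Pou1f1*, and *Tbx19* were added after their values were seen. *Asip*, *Kiss1*, *Prl*, *Fshb*, and *Hesx1* were not analysed here. Same-numbered embryos are different animals, and after removal of the genotype means their correlations were −0.232 to 0.506, so the numbers were not taken to pair them.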

Additional observations from a re-analysis of the deposited data

Results flagged for a closer look

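In groups of 5 embryos, the gap between the most extreme embryo and its neighbor was compared with Dixon's critical value (0.71) for the 5 genes and the list sums, 54 groups in all. Chance marks about 1 in 20 groups, and 5 were marked. They include *Pomc* in WT embryo 1, at 268 normalized read counts, the sum of melanocortin ligands and antagonists in the same embryo, at 289, which is mostly *Pomc*, and its summed pituitary markers, at 352. Heterozygous embryo 2 was low in the summed hypothalamic regional markers, at 3178, and heterozygous embryo 1 was high in the summed Hox genes, at 3952. *Mc4r*, *Mc3r*, *Sim1*, and *Otp* had no such embryo in any genotype.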

How the results depend on the processing

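The alternatives were other pseudocounts (0.1 and 10), filters (none, or a mean of at least 50, under which *Mc3r* has no value), upper-quartile and quantile scaling, sex, hypothalamic, cortical, or *Sim1* and *Otp* covariates, robust eBayes, 2 genotypes alone, the replicate block, and each embryo left out. Leaving out the 4 embryos with a hypothalamic score under 6.1 was added after seeing the data. The *Mc4r* difference stayed between −2.26 and −1.83 (homozygous and WT) and between −1.91 and −1.61 (homozygous and heterozygous). Over 30 settings, 0 of 316 tested values passed the threshold (smallest adjusted p = 0.902, limma). These are the values of *Mc3r*, *Pomc*, *Sim1*, and *Otp* and the heterozygous-to-WT difference of *Mc4r*, whose homozygous comparisons are left out because they selected it.

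Counts of genes past the threshold moved more. Between homozygous and WT mice, 21 became 12 with the 2 genotypes alone, 13 with the hypothalamic and 42 with the cortical covariate, 5 without the 4 embryos, and 12 to 21 without single embryos, the low counts being without WT embryos 1 and 2 and homozygous embryos 3 and 4. Between homozygous and heterozygous mice, 13 became 30 with the cortical covariate and 6 to 8 without any single embryo. Between heterozygous and WT mice, 0 became 1 with the cortical covariate. With the replicate number as a block, the counts were 0, 16, and 2, and *Mc4r* was at −2.00 and −1.78. The cause of these moves was not tested.

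Signs turned for small differences that never passed. *Otp* (homozygous and WT) was 0.0026 with quantile scaling, 0.036 with the cortical covariate, and −0.13 to 0.12 without single embryos. Without the 4 embryos, *Sim1* (homozygous and WT) was −0.082, and *Mc3r* and *Otp* (homozygous and heterozygous) −0.021 and −0.038. Without single embryos, *Pomc* was −0.62 to 0.30 (heterozygous and WT) and −0.77 to 0.15 (homozygous and WT), the upper values being without WT embryo 1, and *Mc3r* was −0.13 to 0.32 (heterozygous and WT). Correlations of the hypothalamic score became 0.079 with *Mc3r*, 0.036 with *Otp*, and −0.026 with *Mc4r* at a pseudocount of 10, and those of *Mc3r* with *Sim1* and *Otp* with *Mc4r* became −0.084 and −0.067 on deviations from the genotype means. Depth limits *Mc3r*, whose values are 4.40 to 22.3 normalized read counts.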
